A study of Homo sapiens with 9 samples.

Results

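TRH, POU4F1, JUP and UBASH3B are 4 genes known to be highly expressed in acute myeloid leukaemia with the t(8;21) translocation. They were taken by symbol from deposited counts of 59648 genes, and all 4 were found in each of the 9 libraries and passed the filter on low counts, as did 14741 genes in all. The libraries come from Kasumi-1, a leukaemia cell line that carries t(8;21) and makes the fusion protein AML1-ETO (AE, also RUNX1-RUNX1T1). All groups received lentiviral shRNA for 48 h, were then kept in 1 µg/mL puromycin for a further 48 h and were collected on day 4. The groups were control shRNA (3 libraries), AE knockdown (libraries 1 to 3) and LYL1 knockdown (shRNAs 538, 540 and 542). The labels do not say whether AE numbers stand for different shRNAs, nor whether the libraries of a group were separate cultures, so the p-values speak of the spread among these libraries alone, which may be technical. Each LYL1 shRNA had 1 library, so the SD of that group mixes differences between shRNAs with those between libraries. All are 1 cell line, and no cells without t(8;21) were among the groups.

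The AE fusion joins the DNA-binding part of RUNX1 to most of RUNX1T1 and is best known as a repressor, although many genes are also more active in cells that carry it. LYL1 is a basic helix-loop-helix factor of blood progenitors that pairs with E proteins at DNA sites called E-boxes and belongs to the protein complex in which AE works. The 4 genes have unlike roles. TRH encodes the precursor of thyrotropin-releasing hormone, a small peptide that the hypothalamus uses to drive the pituitary. POU4F1 (BRN3A) is a homeodomain transcription factor of sensory neurons, JUP (plakoglobin, or gamma-catenin) links cadherins to the cytoskeleton and can act in Wnt signalling, and UBASH3B (STS-1) is a phosphatase that dampens tyrosine kinase signals in blood cells.

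Sequence before RefSeq start sites of the genes is shown for its E-boxes, since LYL1, the target of one of the knockdowns, is a factor of the E-box class. All 4 genes had RefSeq start sites (GRCh38.p14), with 2 for JUP, and the 250 bases before each were searched on both strands. The letters CANNTG, the E-box, are in capitals. TRH and JUP are shown only as 30 bases around E-boxes, because their windows lie largely in exons of the GENCODE annotation. For TRH all 250 bases do, and for the 2 starts of JUP 188 and 233 bases do. The windows of POU4F1 and UBASH3B are shown up to the first annotated exon base, all 5′ to 3′ on the gene's strand.
TRH, chr3:129974690-129974719, + strand: atataagcggcggccCATCTGaagagggct
JUP, second start, chr17:41786007-41786036, - strand: tggcccCACCTGccgagCAGGTGagcgcac
POU4F1, chr13:78603561-78603802, - strand: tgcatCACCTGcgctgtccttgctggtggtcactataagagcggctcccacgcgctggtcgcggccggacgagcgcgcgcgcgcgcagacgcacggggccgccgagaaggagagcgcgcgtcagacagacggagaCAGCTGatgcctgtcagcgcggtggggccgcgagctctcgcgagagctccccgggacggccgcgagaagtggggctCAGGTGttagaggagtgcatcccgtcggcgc
UBASH3B, chr11:122655472-122655674, + strand: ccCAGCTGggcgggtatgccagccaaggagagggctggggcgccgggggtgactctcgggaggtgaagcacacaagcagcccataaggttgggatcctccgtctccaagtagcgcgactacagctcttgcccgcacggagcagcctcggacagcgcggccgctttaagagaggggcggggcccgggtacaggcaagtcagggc

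TRH had 1 E-box, at position -15 from its RefSeq start and within annotated exon sequence, and UBASH3B had 1, at -248. POU4F1 had 3, at -245, -115 and -39. JUP had none before its first start and 3 before its second, at -98, -54 and -43. Of 35114 RefSeq windows of the same length, 61.8% held an E-box, so its presence is common. The letters TGTGGT or TGCGGT, which RUNX proteins recognise, were in 16.3% of those windows and in none of the 5 windows of these genes. That says only that these letters are not in these 250 bases. The windows were rich in G and C, at 74.8% for TRH, 71.2% for POU4F1, 63.6% and 66.0% for JUP and 62.4% for UBASH3B, against a median of 58.0% over all windows. No binding was measured.

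Library totals ran from 20103275 to 28039518 counts. Levels are given in CPM, read counts relative to the library total, scaled by trimmed mean of M values (TMM). RUNX1T1, whose counts hold the ETO part of the fusion, stood at 52.6%, 63.0% and 40.5% of the control mean in AE libraries 1 to 3 and at 84.6%, 92.8% and 121% with LYL1 shRNAs 538, 540 and 542. LYL1 stood at 49.5%, 60.5% and 27.0% of the control mean with its own shRNAs and at 161%, 123% and 106% in AE libraries 1 to 3. The 7 myeloblast markers RUNX1T1, RUNX1, KIT, CD34, CD33, MPO and CD38 had counts in every library. The summed level of 4 neuron markers was at most 0.202 CPM in any library, of 3 fibroblast markers at most 0.0961 CPM, and of 3 epithelium markers 0.449 to 1.30 CPM with KRT19 at 0 throughout. Of the T and B cell markers CD3D, CD3E, CD8A and MS4A1, the last was at 0 in every library; their sum was 6.11 to 8.10 CPM in control, 1.54 to 2.499 CPM in AE knockdown and 3.09 to 10.8 CPM in LYL1 knockdown. CD3D, named here after its values were seen, fell in AE knockdown from a mean of 4.24 to 0.456 CPM (edgeR adjusted p = 0.00405). All libraries are of 1 cell line, and a link of this fall to those of the 4 genes was not tested. Fewer cells that express a gene and less RNA per cell cannot be told apart in such bulk samples.

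The 4 genes were far apart in abundance in control cells. Per kilobase of exon, TRH averaged 234 CPM, rank 103 from the top among 14247 tested genes with a length. JUP followed at 115 (rank 272), UBASH3B at 32.5 (rank 1330) and POU4F1 at 7.78 (rank 5036), against a median gene at 4.05. In AE knockdown the order was the same, with TRH at 87.0 CPM per kilobase (rank 410), JUP at 46.8, UBASH3B at 16.0 and POU4F1 at 5.40. In LYL1 knockdown JUP, at 88.3 CPM per kilobase (rank 396), stood above TRH at 63.2 (rank 602), while UBASH3B (24.8) and POU4F1 (9.33) kept their places.

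All 4 genes fell in AE knockdown, TRH and JUP by the most and POU4F1 by the least. In that comparison 21.8% of all genes tested were called, that is, had an adjusted p below 0.05 in edgeR's quasi-likelihood test; 10.4% were called lower, 11.4% were called higher, and 22.2% had all 3 AE libraries below all 3 controls. In LYL1 knockdown TRH was the only 1 of the 4 that was called. There 0.0136% of genes were called by edgeR, which is 2 genes, TRH lower (0.00678% of genes) and HSD17B10 higher (0.00678%). LYL1 itself, at 49.5%, 60.5% and 27.0% of the control mean with shRNAs 538, 540 and 542, was not called. A gene not called in this comparison is thus not shown to be unchanged. At an unadjusted p below 0.05 there were 711 genes (4.82%), and DESeq2 called 33. Both comparisons share the 3 control libraries.

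**Figure D1:**
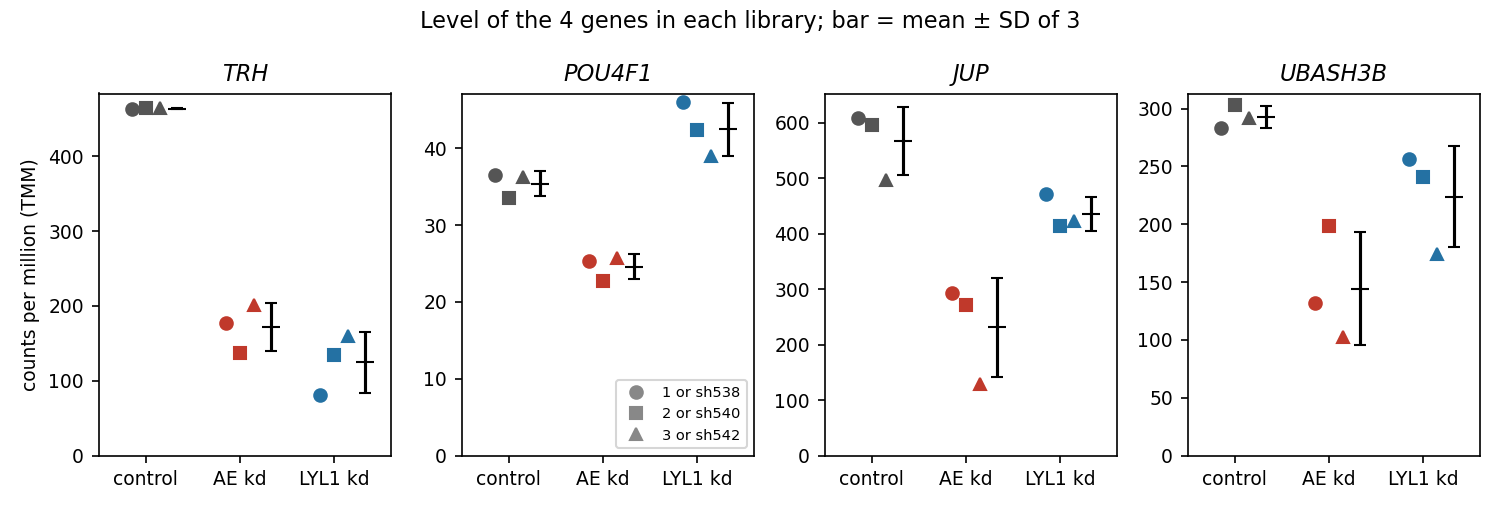
TMM-scaled CPM (y axis, from 0) of TRH, POU4F1, JUP and UBASH3B in each of the 9 libraries by group (x axis), with a bar for the mean ± SD of 3 libraries. All AE libraries lie below all controls for each gene, TRH is lowest with LYL1 shRNA 538 at 80.5 CPM, and POU4F1 is above the controls in all 3 LYL1 libraries.

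TRH, the hormone precursor, stood at 463, 464 and 464 CPM in the 3 control libraries. In AE libraries 1 to 3 it stood at 178, 137 and 201 CPM, and with LYL1 shRNAs 538, 540 and 542 at 80.5, 134 and 160 CPM. Every knockdown library of either kind thus lay far below the controls, while the AE and LYL1 ranges overlapped. All 3 libraries lay below all 3 controls for 22.2% of genes in AE knockdown and for 8.17% in LYL1 knockdown. For TRH the control libraries differed by an SD of 0.926 CPM, which is 0.20% of their mean and below the 0.928% that counting error alone gives 1 library at that level. AE knockdown averaged 172 ± 32.2 CPM (SD, n = 3) against 464 ± 0.926 in control, and the fitted log2 difference was -1.43 (SE 0.23, 95% interval -1.94 to -0.92, edgeR adjusted p = 0.00422), or 2.69-fold lower. LYL1 knockdown averaged 125 ± 40.7 CPM, a log2 difference of -1.89 (SE 0.23, interval -2.41 to -1.38, edgeR adjusted p = 0.0408), or 3.71-fold lower. The call in AE knockdown held in all 20 alternatives, with log2 differences of -1.57 to -1.29. The call in LYL1 knockdown ended with the strict low-count filter (adjusted p = 0.0558), without control 1, 2 or 3 (0.223, 0.143 and 0.299), without AE library 1 (0.0924) and without LYL1 shRNA 538, 540 or 542 (0.052, 0.14 and 0.0605), while its log2 difference stayed between -2.11 and -1.66.

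The libraries of a knockdown did not rank alike for TRH and for the targeted gene. TRH was lowest with LYL1 shRNA 538, at 17.4% of the control mean, where LYL1 itself was at 49.5%. It was highest of the 3 with shRNA 542, at 34.5%, where LYL1 was lowest at 27.0%. Among AE libraries TRH was highest in library 3, at 43.4%, where RUNX1T1 was lowest at 40.5%. With 3 libraries a group, no test of these orders was made.

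The other genes of the hormone's path were mostly silent. Of 8 genes for processing, sensing and breakdown of the peptide, 3 passed the filter. Of these 3, 0 were called in AE knockdown and 0 in LYL1 knockdown, where 21.8% and 0.0136% of all genes tested were. The median log2 difference of the 3 was -0.12 in AE knockdown against 0.05 over all genes tested, and 0.38 in LYL1 knockdown against 0.01. PCSK1 and PCSK2, the convertases of neuroendocrine cells, QPCT, which cyclises the peptide's first residue, and TRHDE, which degrades it, had 0 counts in all 9 libraries. TRHR, the receptor, had 1 count in AE library 2 and 0 in the other 8 libraries. PAM, which amidates the peptide's end, averaged 72.3 CPM in control and 66.6 in AE knockdown (edgeR adjusted p = 0.641). FURIN, a general convertase, averaged 99.7 CPM in control, 102 in AE knockdown and 162 in LYL1 knockdown, and differed between the knockdowns by -0.67 on the log2 scale (AE minus LYL1, edgeR adjusted p = 0.0166). That call ended without LYL1 shRNA 540 (0.053) or 542 (0.0576) and in a fit of only the 6 libraries compared (0.0674).

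JUP, the catenin, stood at 609, 596 and 498 CPM in the control libraries. It stood at 294, 271 and 129 CPM in AE libraries 1 to 3, and at 471, 414 and 424 CPM with LYL1 shRNAs 538, 540 and 542. The 3 groups did not overlap: control was highest, LYL1 knockdown lay between, and AE knockdown was lowest, with AE library 3 at 22.7% of the control mean and the other two near each other at 51.8% and 47.8%. AE knockdown averaged 231 ± 89.4 CPM (SD, n = 3) against 567 ± 60.7, a log2 difference of -1.29 (SE 0.26, interval -1.86 to -0.73, edgeR adjusted p = 0.00838). Without AE library 3 it was -1.02, and the call held in all 20 alternatives. LYL1 knockdown averaged 436 ± 30.8 CPM, a log2 difference of -0.38 (SE 0.25, interval -0.93 to 0.18, edgeR adjusted p = 1). All 3 LYL1 libraries lay below all 3 controls, which 8.17% of genes did in that comparison, and JUP is not called there. All 3 AE libraries lay below all 3 controls for 22.2% of genes.

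Few partners of JUP were expressed. Of 23 genes of catenins, cadherins and desmosome proteins, 7 passed the filter. In AE knockdown 2 of the 7 were called lower and 1 higher, where 10.4% and 11.4% of all genes tested were. The list was not tested against those shares. Its median log2 difference was -0.30 against 0.05 over all genes tested. CDH2, N-cadherin, fell by 1.88 on the log2 scale from a mean of 5.43 CPM to 1.44 (edgeR adjusted p = 0.00645), and by 2.53 without AE library 2. CTNNA1, alpha-catenin, which ties JUP and beta-catenin to actin, fell by 0.59 from 146 to 97.2 CPM (edgeR adjusted p = 0.0378), a call that ended without control 1, 2 or 3 (0.116, 0.107 and 0.0931), without AE library 3 (0.0513) and without LYL1 shRNA 538 or 540 (0.0513 and 0.0515). CTNNB1, beta-catenin and the closest relative of JUP, averaged 288 ± 9.80 CPM in control, 309 ± 85.0 in AE knockdown and 275 ± 52.9 in LYL1 knockdown (SD, n = 3), with edgeR adjusted p = 0.754 and 1. VIM, an intermediate filament gene of mesenchymal cells, was called higher but rested on AE library 3, with 235 counts there, 13 and 1 in AE libraries 1 and 2, and 1, 0 and 0 in control. Without AE library 3 its edgeR adjusted p was 0.234, and the call also ended without any 1 of the controls or LYL1 libraries. In LYL1 knockdown 0 of the 7 were called, where 0.0136% of all genes were.

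Part of the canonical Wnt pathway, in which catenins act, fell in AE knockdown. Of 29 listed genes 23 passed the filter. In AE knockdown 10 of the 23 were called lower and 0 higher, where 10.4% and 11.4% of all genes tested were. Their median log2 difference was -0.57 against 0.05 over all genes tested. TCF7, a transcription factor that works with beta-catenin, fell by 2.41 on the log2 scale, from a mean of 15.03 to 2.86 CPM (edgeR adjusted p = 0.00365). LRP6, a Wnt co-receptor, fell by 1.00 from 118 to 58.5 CPM (edgeR adjusted p = 0.00416), and TCF7L2, another beta-catenin partner, fell by 0.91 from 33.5 to 17.8 CPM (0.00713). GSK3A, a kinase that marks beta-catenin for breakdown, fell by 0.73 from 74.8 to 45.0 CPM (edgeR adjusted p = 0.00745). Members on both sides of the pathway thus fell. Without control 1 or control 2 the count was 6. In LYL1 knockdown 0 of the 23 were called, with a median of -0.05, in a comparison where 0.0136% of all genes were called.

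UBASH3B, the phosphatase, stood at 283, 303 and 292 CPM in the control libraries. It stood at 132, 198 and 103 CPM in AE libraries 1 to 3, and at 257, 241 and 174 CPM with LYL1 shRNAs 538, 540 and 542. All knockdown libraries lay below the controls. That held for 22.2% of genes in AE knockdown and for 8.17% in LYL1 knockdown. For UBASH3B, LYL1 shRNA 542 lay below AE library 2. AE knockdown averaged 144 ± 48.9 CPM (SD, n = 3) against 293 ± 9.81, a log2 difference of -1.02 (SE 0.23, interval -1.52 to -0.52, edgeR adjusted p = 0.0126). Without control 2 the call ended (0.0519), and the log2 difference was -1.32 without AE library 2 and -0.84 without AE library 3. LYL1 knockdown averaged 224 ± 43.5 CPM, a log2 difference of -0.39 (SE 0.22, interval -0.88 to 0.11, edgeR adjusted p = 1), which did not pass the test.

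Among 24 CBL ubiquitin ligases and tyrosine kinase genes around UBASH3B, 19 passed the filter. In AE knockdown 4 of the 19 were called higher and 3 lower, where 11.4% and 10.4% of all genes tested were. The list was not tested against those shares. Its median log2 difference was -0.08 against 0.05 over all genes tested. PTPN6 (SHP-1), a phosphatase that also dampens kinase signals, rose by 1.5 on the log2 scale from a mean of 93.4 to 264 CPM (edgeR adjusted p = 0.00401). GAB2, an adaptor of cytokine receptors, fell by 1.15 from 43.5 to 19.5 CPM (edgeR adjusted p = 0.0144, and 0.0595 without control 2). ZAP70, a kinase known from T cells, fell by 1.85 at low level, from 0.895 to 0.233 CPM (edgeR adjusted p = 0.0122, and 0.0551 without control 3). Without control 1, 2 or 3 or AE library 3 the count called higher was 2 (1 with no filter on low counts), without control 2 or 3 the count called lower was 1, and without AE library 2 it was 6. UBASH3A, the relative known from T cells, had 2 counts with LYL1 shRNA 540 and 0 in the other 8 libraries. In LYL1 knockdown 0 of the 19 were called, where 0.0136% of all genes were.

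POU4F1, the neuronal transcription factor, was the lowest of the 4, at 36.4, 33.5 and 36.2 CPM in the control libraries. It stood at 25.4, 22.7 and 25.7 CPM in AE libraries 1 to 3, and at 45.9, 42.3 and 39.0 CPM with LYL1 shRNAs 538, 540 and 542. The groups did not overlap. All AE libraries lay below all controls for 22.2% of genes. POU4F1 was the only 1 of the 4 whose LYL1 libraries all lay above the controls, as they did for 8.41% of genes. AE knockdown averaged 24.6 ± 1.65 CPM (SD, n = 3) against 35.4 ± 1.63, a log2 difference of -0.53 (SE 0.13, interval -0.81 to -0.24, edgeR adjusted p = 0.0184), or 1.44-fold lower. LYL1 knockdown averaged 42.4 ± 3.46 CPM, a log2 difference of 0.26 (SE 0.13, interval -0.02 to 0.55, edgeR adjusted p = 1), which did not pass the test. The call in AE knockdown ended without control 1, 2 or 3 (0.077, 0.0618 and 0.0689). An antisense gene, AL445209.1, named here after its values were seen, shares 1258 of the 4547 exon bases of POU4F1 on the other strand; its 20 to 40 counts per library equal 2.77% to 4.68% of those of POU4F1, and reads in the overlap could not be assigned without the strand setting.

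Both close relatives of POU4F1 were at or near 0, while POU2F1 and RET were expressed, at control means of 70.01 and 36.0 CPM. Of 21 POU factors and sensory neuron genes, 4 passed the filter, with a median log2 difference of -0.73 in AE knockdown against 0.05 over all genes tested. In that comparison 0 of the 4 were called higher, where 11.4% of all genes were, and 1 was called lower, where 10.4% were. That gene, POU2F1 (OCT1), a broadly expressed factor, fell by 0.45 on the log2 scale from 70.01 to 51.3 CPM (edgeR adjusted p = 0.0417), a call that ended without control 1, 2 or 3 (0.107, 0.136 and 0.104), AE library 1 or 2 (0.075 and 0.0791) or LYL1 shRNA 538 or 540 (0.0545 and 0.0518). POU4F2 had 0 counts in all 9 libraries, and POU4F3 had 1 count with LYL1 shRNA 540 and 0 in the other 8. RET, a neurotrophic receptor, and POU2F2 (OCT2) missed the threshold in AE knockdown at edgeR adjusted p = 0.0582 and 0.0631. In LYL1 knockdown 0 of the 4 were called, where 0.0136% of all genes were.

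**Figure D2:**
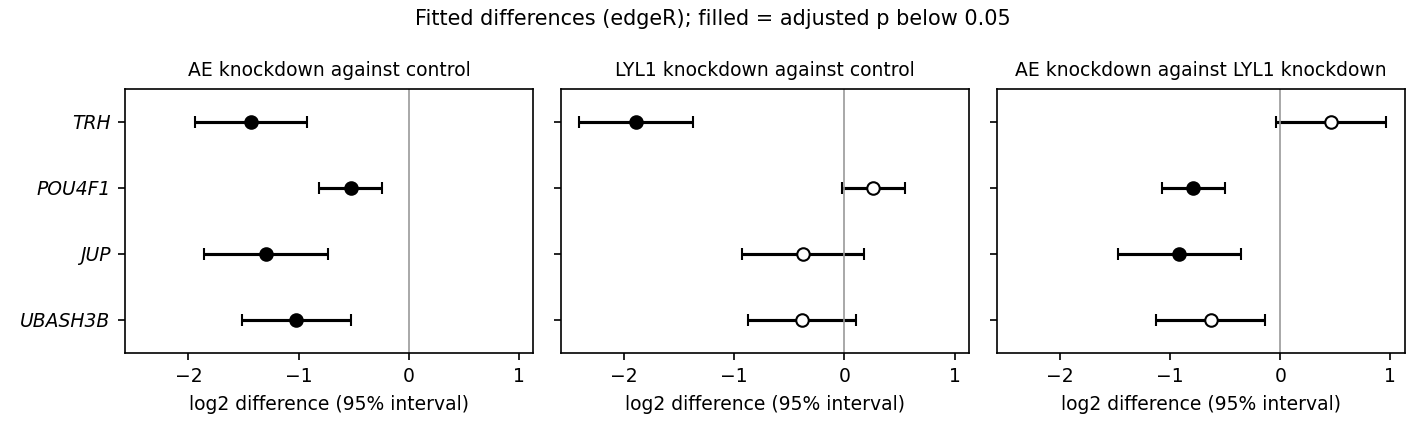
Fitted log2 difference (x axis) with its 95% interval for each gene (y axis) in the 3 comparisons, filled where the adjusted p was below 0.05. AE knockdown against control is filled for all 4 genes, LYL1 knockdown against control for TRH alone at -1.89, and AE against LYL1 knockdown for POU4F1 at -0.79 and JUP at -0.91.

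The difference between the knockdowns was itself tested as AE minus LYL1 knockdown in the same model, a comparison in which 20.4% of genes were called 9.7% were called lower and 10.7% were called higher. POU4F1 was lower in AE than in LYL1 knockdown by a log2 difference of -0.79 (SE 0.13, edgeR adjusted p = 0.00451), or 1.73-fold, and the call held in all 19 alternatives. JUP was lower in AE knockdown by -0.91 (SE 0.25, edgeR adjusted p = 0.0291), or 1.89-fold, and its call ended without LYL1 shRNA 538, 540 or 542 (0.0806, 0.0589 and 0.0696) and in a fit of only the 6 libraries compared (0.0842). UBASH3B had a difference of -0.63 (SE 0.23, edgeR adjusted p = 0.0687), which passed by DESeq2 (-0.65, adjusted p = 0.0386) and without AE library 2 (-0.93, adjusted p = 0.00761). TRH had a difference of 0.46 (SE 0.23, interval -0.04 to 0.96, edgeR adjusted p = 0.167), so that its levels were not shown to differ between the knockdowns.

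Over the 9 libraries the log2 CPM of JUP and UBASH3B had a Pearson r of 0.90, the highest of the 6 pairs. POU4F1 had r of 0.68 with JUP and 0.61 with UBASH3B, and TRH had 0.37 with UBASH3B, 0.36 with JUP and -0.08 with POU4F1. These describe 9 points that share groups, library scaling and controls. Within AE knockdown, library 3 was lowest for RUNX1T1, JUP and UBASH3B but highest for TRH, and library 2 was lowest for TRH and POU4F1. For POU4F1 libraries 1 and 3 were not told apart, at 25.4 and 25.7 CPM with a counting error of 3.99%. Within LYL1 knockdown, shRNA 542 was lowest for LYL1, POU4F1 and UBASH3B but highest for TRH.

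**Figure D3:**
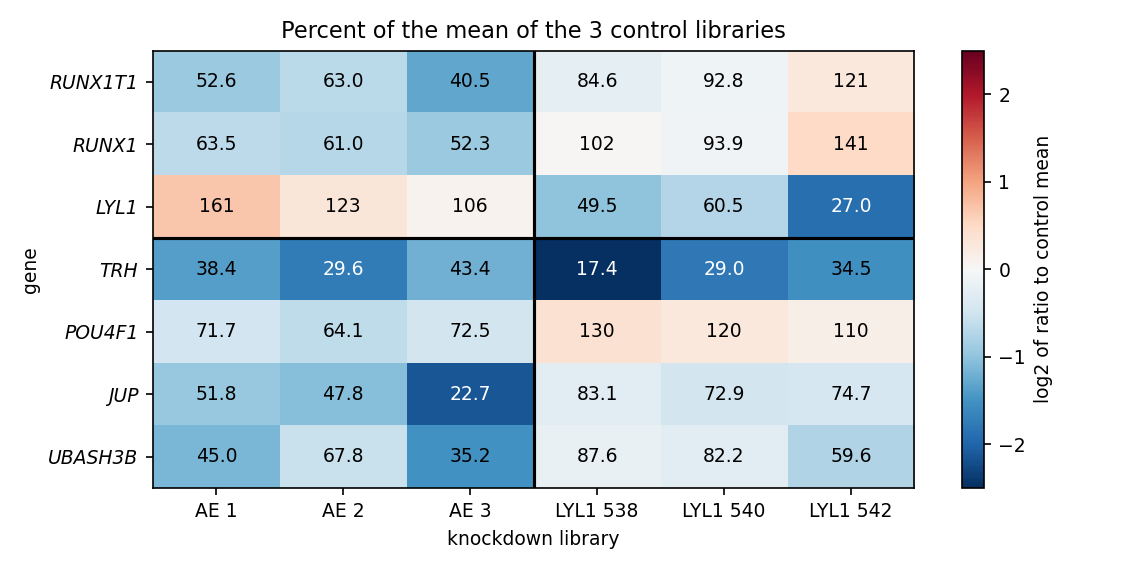
Level in each of the 6 knockdown libraries (x axis) as a percent of the mean of the 3 control libraries, for RUNX1T1, RUNX1 and LYL1 above the line and the 4 genes below it (y axis); colour is the log2 of the ratio. TRH is at 17.4% to 43.4% in all 6 libraries, whereas POU4F1 is at 64.1% to 72.5% in AE and 110% to 130% in LYL1 libraries.

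The 3 genes whose log2 CPM over the 9 libraries was most like that of each gene were taken from the 10064 genes that averaged 2 or more on that scale. For TRH they were SH2B1 (r = 0.95), RAB15 (0.93) and FAM160B1 (0.89). Of these RAB15 averaged 19.9 CPM in control, 10.2 in AE knockdown and 10.8 in LYL1 knockdown. In the same order SH2B1 averaged 25.6, 22.8 and 21.5 CPM, and FAM160B1 41.8, 36.7 and 32.4 CPM. All genes named here were picked from the same 9 libraries. Their differences between groups thus follow in part from that choice and are not a separate test. For POU4F1 they were BAZ2A, KMT2B and CSNK1G3 (each 0.97), and BAZ2A averaged 184 CPM in control, 124 in AE and 208 in LYL1 knockdown. For JUP they included IQSEC1 and AC112777.1 (each 0.99), and for UBASH3B they were GTSE1 (0.99), SLC7A5 (0.98) and SSRP1 (0.98).

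HSD17B10, a mitochondrial dehydrogenase named here after its values were seen, was the other gene called in LYL1 knockdown. It stood at 12.2, 13.5 and 14.6 CPM in control, 62.1, 53.8 and 55.8 CPM with LYL1 shRNAs and 86.6, 96.5 and 85.4 CPM in AE libraries. It was thus above the controls in every knockdown library, where TRH was below them.

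Some other genes described as high in t(8;21) leukaemia fell as well. Of 17 listed, 11 passed the filter. In AE knockdown 4 of the 11 were called lower and 0 higher, where 10.4% and 11.4% of all genes tested were. Their median log2 difference was -0.49 against 0.05 over all genes tested. MPO and KIT, listed too and named after their values were seen, were not called against control. In AE libraries 1 to 3 MPO stood at 167%, 83.3% and 157% of the control mean, and KIT at 112%, 99.7% and 38.2%. MPO was called higher in AE than in LYL1 knockdown, a call that ended without control 1, 2 or 3. PALM, a membrane-linked protein, fell by 1.79 on the log2 scale from 50.6 to 14.5 CPM (edgeR adjusted p = 0.00525), and CCND2, a cyclin of the G1 phase, fell by 1.09 from 118 to 55.7 CPM (0.00956). SIPA1L2 fell by 1.18 (0.0205) and HSPG2, a basement membrane proteoglycan, by 0.69 (0.0237). Neither of these last calls held without control 1 (0.0658 and 0.086) or control 2 (0.0735 and 0.0914), which left 2 called lower; SIPA1L2 was also lost without control 3 (0.0592) or AE library 3 (0.0525), and HSPG2 without AE library 1 (0.0613). In LYL1 knockdown 0 of the 11 were called, with a median of -0.18, in a comparison where 0.0136% of all genes were called.

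Markers of myeloid maturation moved with AE knockdown in the other direction. Of 15 listed 11 passed the filter. Of the 11, 9 were called higher and 0 lower, where 11.4% and 10.4% of all genes tested were. Their median log2 difference was 3.16 against 0.05 over all genes tested. The summed level of the 15 was 806 to 952 CPM in control, 1393, 1298 and 5634 CPM in AE libraries 1 to 3, and 543 to 905 CPM in LYL1 knockdown. BPI, a neutrophil granule protein, alone held 422, 299 and 3642 CPM of the AE sums against 16.6 to 20.3 CPM in control. Without BPI the sums were 787 to 931 CPM in control and 971, 999.2 and 1992 CPM in AE libraries 1 to 3. FCGR3B, a neutrophil receptor, was at 0 in all 9 libraries. AE library 3, the highest for these markers, was also the lowest for JUP and UBASH3B. For TRH it was the highest of the AE libraries, at 201 CPM. For POU4F1 it stood at 25.7 CPM, beside 25.4 in AE library 1 and 22.7 in AE library 2. The part of maturation in the falls of the 4 genes was not tested. The count was 2 without control 2, 5 without control 3, 2 with no filter on low counts and 4 by limma-voom. In LYL1 knockdown 0 of the 11 were called, in a comparison where 0.0136% of all genes were.

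**Figure D4:**
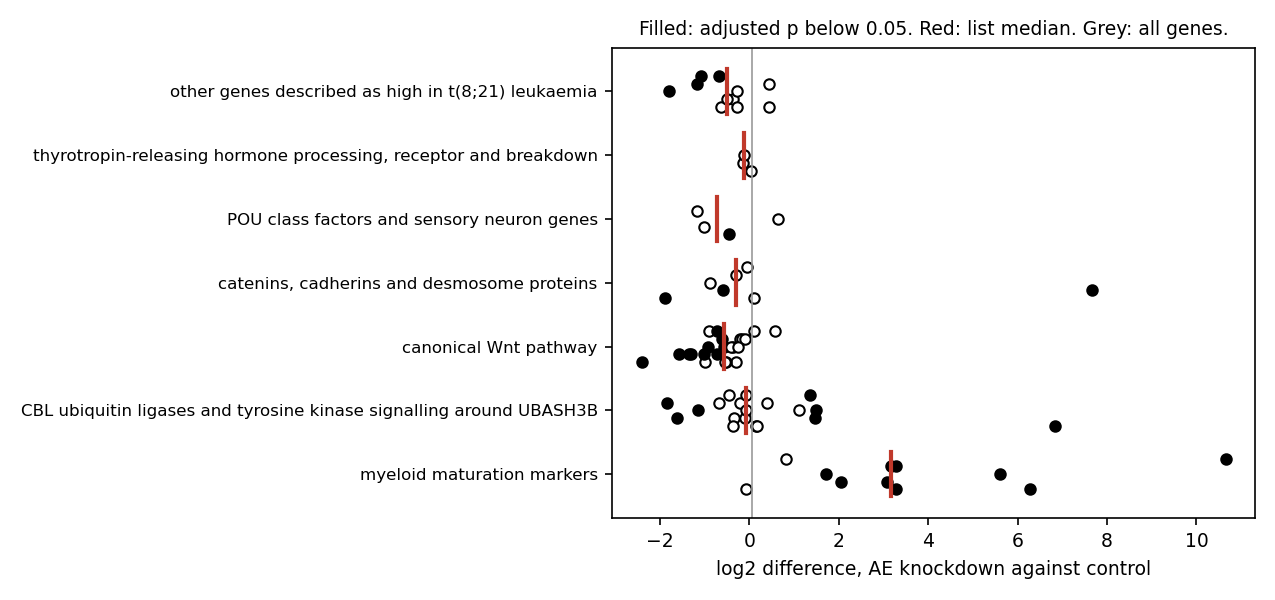
Log2 difference in AE knockdown against control (x axis) of each tested gene of the 7 lists (y axis), filled where the adjusted p was below 0.05, with the list median in red and the median of all genes as a grey line. Canonical Wnt genes have 10 filled points, all below 0, and myeloid maturation markers have 9, all above 0.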

How the data were processed

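RNA-seq counts of 9 Kasumi-1 libraries were used, 3 per group. The deposited counts are the authors' whole-number reads per gene symbol, not normalised. The submitters' processing notes name featureCounts 2.0.1, DESeq2 1.26.0, the build hg19, HISAT2 2.2.0, fastp 0.20.1 and SAMtools 1.7, with no role given. The annotation, strand setting and handling of multi-mapped reads are not given in the sources used here. A suffix was removed from 5 gene names in 6 of the files.

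Counts were scaled by TMM, filtered by group (filterByExpr) and fitted with all 9 libraries in 1 group-means model by edgeR 4.0.16 (R 4.3.3, robust quasi-likelihood F test), adjusted by Benjamini-Hochberg over 14741 genes and called below 0.05. Fold changes use a prior count of 0.125, and the SE is the log2 difference over the square root of F. The fit was tested on simulated data. Lengths are GENCODE v29 exon unions on GRCh38, another build than that of the counts, and sequences are from RefSeq (GRCh38.p14). Totals of 20103275 to 28039518 counts gave the 4 genes 534 to 15820 counts per library.

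Alternatives were 3 other scalings, DESeq2 1.42.0, no filter on low counts, at least 50 counts in 3 libraries (the strict filter), limma-voom (limma 3.58.1), non-robust and legacy tests, only the 6 libraries compared, a replicate block, an adjusted p below 0.01 and leaving out each library. The legacy test and the alternatives for lists were added after seeing the data. The genes and lists were chosen with earlier results of these data known. Named are the 4 genes, RUNX1T1, RUNX1 and LYL1, TRHR, POU4F2, POU4F3, CTNNB1 and UBASH3A, up to 4 genes per list with the smallest adjusted p in AE knockdown, up to 4 called in LYL1 knockdown, and the 3 most alike genes; some that the rule names are not reported here. Others, such as genes at 0 and marker genes, were named after their values were seen.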

Additional observations from a re-analysis of the deposited data

Results flagged for a closer look

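For some named genes the AE knockdown and the LYL1 knockdown differed by a test of the difference itself (edgeR, AE minus LYL1, adjusted p below 0.05). Of the 4 genes these were POU4F1 at -0.79 and JUP at -0.91 on the log2 scale. The knockdown targets differed too, RUNX1T1 and RUNX1 each at -0.93 and LYL1 at 1.51. Among genes around the 4, the log2 differences were -1.53 for PALM, -0.98 for CCND2, -0.67 for FURIN, -1.56 for POU2F2, -1.64 for CDH2 (-2.29 without AE library 2) and -0.65 for CTNNA1. In a fit of only the 6 libraries compared, the calls of JUP (adjusted p = 0.0842), CCND2 (0.0572), FURIN (0.0674) and CTNNA1 (0.0884) ended. They also ended for CCND2 without LYL1 shRNA 542 (0.0524), for CTNNA1 without 538 (0.0538) or 542 (0.0904), for FURIN without 540 (0.053) or 542 (0.0576), and for JUP without 538, 540 or 542 (0.0806, 0.0589 and 0.0696). The Wnt genes TCF7, LRP6, TCF7L2 and GSK3A differed by -1.95, -0.92, -0.92 and -0.79. PTPN6 differed by 1.43 and GAB2 by -1.24. The myeloid genes BPI (6.82), TYROBP (6.36) and CEBPE (1.77) were higher in AE knockdown. Without AE library 3 they were 4.79, 4.29 and 1.12, and TYROBP was 7.01 without LYL1 shRNA 538. With no filter on low counts the calls of TYROBP (0.0595) and CEBPE (0.0796) ended, as did that of CEBPE with only the 6 libraries compared (0.0562). Groups of 3 libraries were not searched for single libraries that stand apart.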

How the results depend on the processing

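Over the 12 comparisons of the 4 genes, 213 of 232 alternative values kept their direction and side of the threshold, 17 lost the call, 2 gained it and 0 reversed. Comparisons not called in the main fit are among the 232 and could not lose a call. For TRH in LYL1 knockdown 8 of 19 alternatives lost it. The threshold of 0.01 was applied only to counts of called genes and is not among the 232. At 0.01, POU4F1 (edgeR adjusted p = 0.0184) and UBASH3B (0.0126) in AE knockdown would not be called. Nor would TRH in LYL1 knockdown (0.0408) or JUP in AE against LYL1 knockdown (0.0291). For the other named genes 105 of 2419 values lost a call and 29 gained one. These 2419 also include comparisons not called in the main fit, which could not lose a call. A reversal was looked for only in comparisons that the main fit called, and 0 were found there. TRH in LYL1 knockdown was -1.89 with the strict filter (adjusted p = 0.0558) and -2.11 to -1.66 when each library was left out; JUP in AE against LYL1 knockdown was -0.92 with only the 6 libraries compared (0.0842) and -1.13 to -0.63 with each library left out. UBASH3B in that comparison was -0.65 by DESeq2 (0.0386) and -0.93 to -0.45 with each left out, and in AE knockdown against control -1.32 to -0.84. POU4F1 in AE knockdown was -0.57 to -0.47 with each left out. Genes called in AE knockdown numbered 813 at an adjusted p below 0.01 and 954 to 4268 with each library left out, against 3214. In AE against LYL1 knockdown they numbered 941 with only the 6 libraries compared, 784 below 0.01 and 1460 to 4007 with each left out, against 3003. In LYL1 knockdown they numbered 5 by library size only, 8 with no filter, 1 with the strict filter, 33 by DESeq2, 15 with only the 6 libraries compared, 1 below 0.01 and 1 to 11 with each left out, against 2. The cause was not tested. By library size alone 4 of the 5 LYL1 calls were higher, against 1 of 2 in the main fit, too few to show a shift in direction.

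Control and AE libraries share the numbers 1 to 3, but the replicate block was not taken as pairing: the correlations of same-numbered deviations were 0.0416, -0.0135 and 0.00685, and not every library correlated best with its own number. With the replicate block 1629 genes were called in AE knockdown, and POU4F1 was -0.54 (adjusted p = 0.0623). The LYL1 libraries share no numbers with the others.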
